A study of Drosophila melanogaster and Drosophila melanogaster x Drosophila simulans and Drosophila simulans with 6 samples.

Results

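The genes described here are the 10 maternal genes of the dorsoventral Toll pathway that were picked by identifier, namely ndl (Dmel_CG10129), pip (Dmel_CG9614), gd (Dmel_CG1505), snk (Dmel_CG7996), ea (Dmel_CG4920), spz (Dmel_CG6134), Tl (Dmel_CG5490), tub (Dmel_CG10520), dl (Dmel_CG6667) and cact (Dmel_CG5848). They are 10 of the 13973 D. melanogaster genes in the table, which lists 28229 genes of both species. ndl and pip act in the somatic follicle cells, and the other 8 genes are supplied by the germline. The comparison was made on the D. melanogaster alleles in hybrid ovaries against the same alleles in D. melanogaster ovaries.

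Polyadenylated ovarian RNA was sequenced from 2 hybrid, 2 D. melanogaster Hmr2 and 2 D. simulans w501 samples. The hybrids were F1 daughters of D. melanogaster Hmr2 females and D. simulans w501 males. They carry 1 copy of each D. melanogaster gene beside its D. simulans counterpart. The D. melanogaster ovaries came from the Hmr2 line itself. The study methods give an age of 3 to 6 days for the hybrid females. The study gives the same age for hybrid and parental females dissected for ovary phenotypes. It states no age for the D. melanogaster females of these libraries. Both groups therefore carry the Hmr2 allele, a mutation of a hybrid incompatibility gene, and the In(1)AB inversion of the X chromosome, in 1 copy in the hybrids. Only hybrid ovaries that held at least several ovarioles with egg chambers were taken by the study, so the hybrid libraries describe the better developed ovaries.

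The dorsoventral axis of the fly embryo is set by a relay that starts in the egg chamber. Pipe, a sulfotransferase of ventral follicle cells, modifies the eggshell, and the proteases Nudel, Gastrulation defective, Snake and Easter then act outside the embryo to cut the ligand Spätzle. Spätzle binds the receptor Toll, the adaptor Tube passes the signal on, and the NF-kappaB protein Dorsal leaves its inhibitor Cactus and enters the ventral nuclei. The germline transcripts are loaded into the egg, while ndl and pip transcripts stay in the follicle cells.

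The 6 libraries held between 12981002 and 22363396 estimated counts. D. melanogaster genes took 45.1 to 47.7% of the counts in hybrid libraries and 97.0 to 97.3% in D. melanogaster libraries. In the D. simulans libraries 2.61 to 2.65% fell on D. melanogaster genes, which is the rate of reads placed in the wrong species. Counts were normalised within the D. melanogaster genes and are given as CPM, a count scaled to the same TMM-adjusted total in every library, so an equal change of all D. melanogaster alleles would not be seen. All 10 genes passed the filter on low counts, as did 8202 genes in all. A gene was called at an adjusted p below 0.05 with at least a 2-fold change (edgeR's quasi-likelihood test, Benjamini-Hochberg over the 8202 genes).

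Of the 10 genes, 1 was called lower in hybrids and 0 were called higher. Among all tested genes 10.3% were called lower and 2.99% higher, 13.2% together, so the share of called members was near the background. Of the calls over all genes 22.6% were higher in hybrids, a share that was 33.8% with library sizes without TMM and 75.8% in TPM with hybrid TPM doubled. The called gene was ndl. With no minimum fold change 3 of the 10 genes passed, namely ndl and tub lower and spz higher, against 21.8% of all genes (15% lower and 6.8% higher). At an unadjusted p below 0.05 there were 5, of which spz, dl and cact were higher, and DESeq2 also called 0 members higher. Here and below, no share of all genes was taken at an unadjusted p, so such counts have no background. The hybrid and D. melanogaster libraries did not overlap for 6 of the 10 genes, against 73.7% of all genes (37.2% with the hybrid libraries lower and 36.6% with them higher). The hybrid libraries were the lower ones for ndl, pip and tub, and the higher ones for spz, dl and cact.

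**Figure D1:**
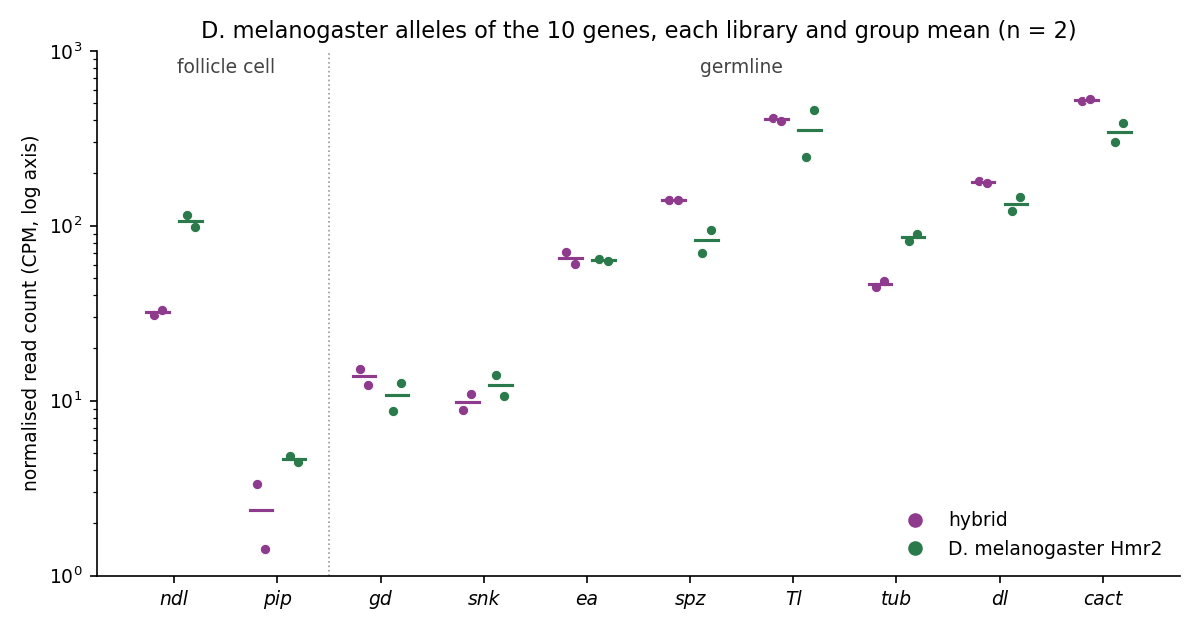
Normalised read counts (CPM, log axis) of the D. melanogaster alleles of the 10 genes, with 1 point per library and a line at the mean of 2 libraries, hybrid left of D. melanogaster. For ndl both hybrid points lie at 30.8 and 33.2 CPM, below the D. melanogaster points at 114 and 98.5 CPM, while for spz the hybrid points lie above the D. melanogaster ones.

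Among the follicle cell genes, ndl encodes the large multidomain serine protease Nudel, which is laid down in the vitelline space and is needed both for eggshell integrity and to start the protease cascade. The gene lies on chromosome 3L at 6593938 to 6603366 (Release 6, minus strand), with 15 exon blocks. ndl had 30.8 and 33.2 CPM in hybrid libraries, against 114 and 98.5 CPM in D. melanogaster libraries. Both hybrid values were far below both D. melanogaster values, and the replicates of each group were close. The means were 32.0 ± 1.69 CPM in hybrids and 107 ± 11.3 CPM in D. melanogaster (SD, n = 2 each). On the log2 scale ndl fell by 1.74 (SE 0.17, 95% interval -2.13 to -1.35, edgeR adjusted p = 0.00123). ndl was called under all 16 alternative settings, with log2 fold changes of -1.87 to -1.06 and adjusted p-values of 9.8e-13 to 0.0081.

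pip encodes the Golgi sulfotransferase Pipe, whose confinement to ventral follicle cells marks the future ventral side. It lies on 3L at 19298623 to 19337609 (minus strand) and is annotated with 11 transcripts, which the table sums into 1 value. pip had 3.36 and 1.41 CPM in hybrids, against 4.82 and 4.49 CPM in D. melanogaster. The hybrid values were both lower but far apart from each other, and they rested on 27.1 and 12.0 estimated counts. The log2 fold change of -0.96 (SE 0.45, 95% interval -2.02 to 0.10) did not pass the test (edgeR adjusted p = 0.152). Leaving out 1 library at a time gave values of -1.70 to -0.46, so the low count of hybrid replicate 2 set much of the size. A difference in pip was not detectable with so few counts and hybrid replicates so far apart.

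The germline supplies the other proteases. gd, on X at 11985154 to 11987764 (minus strand), encodes the protease that cuts Snake. It had 15.3 and 12.3 CPM in hybrids, against 8.78 and 12.7 CPM in D. melanogaster, and the groups overlapped. Its log2 fold change was 0.36 (SE 0.28, 95% interval -0.28 to 1.01, edgeR adjusted p = 0.344).

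snk, on 3R at 13040165 to 13042770 (minus strand), encodes Snake, which cuts Easter. It had 8.8 and 11.0 CPM in hybrids, against 14.0 and 10.7 CPM in D. melanogaster, again with overlap. Its log2 fold change was -0.32 (SE 0.27, 95% interval -0.94 to 0.30, edgeR adjusted p = 0.384), and its sign was positive in TPM with hybrid TPM doubled for the single gene copy.

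ea, on 3R at 15328729 to 15330408 (plus strand), encodes Easter, the protease that releases the active ligand. It had 70.9 and 60.3 CPM in hybrids, against 64.3 and 62.8 CPM in D. melanogaster. The D. melanogaster values lay between the hybrid ones. The log2 fold change was 0.05 (SE 0.16, 95% interval -0.33 to 0.42, edgeR adjusted p = 0.845), and on this scaling the interval lay well within 2-fold. In TPM with hybrid TPM doubled (pseudocount 0.1) ea was at 0.55, where the median of all genes was 0.52.

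spz, on 3R at 27064990 to 27070070 (minus strand), encodes the ligand Spätzle. It had 141 and 140 CPM in hybrids, against 70.2 and 94.5 CPM in D. melanogaster. The hybrid libraries were nearly equal and both lay above the D. melanogaster libraries, which differed from each other. The means were 140 ± 0.736 CPM in hybrids and 82.4 ± 17.2 CPM in D. melanogaster (SD, n = 2 each). spz had a log2 fold change of 0.77 (SE 0.19, 95% interval 0.34 to 1.21, edgeR adjusted p = 0.0273), past the test but under 2-fold. The adjusted p was 0.170 without hybrid replicate 1 and 0.178 without hybrid replicate 2.

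Tl, on 3R at 26799041 to 26842403 (plus strand), encodes the receptor Toll, placed over the whole egg membrane. It had 411 and 398 CPM in hybrids, against 247 and 460 CPM in D. melanogaster. The hybrid values fell inside the range of the D. melanogaster values, whose replicates differed more than for any other member. The log2 fold change was 0.19 (SE 0.28, 95% interval -0.46 to 0.85, edgeR adjusted p = 0.621). Its direction was set by the D. melanogaster library used. The log2 fold change was -0.19 without D. melanogaster replicate 1 and 0.68 without D. melanogaster replicate 2.

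tub, on 3R at 4387742 to 4389813 (plus strand), encodes the adaptor Tube, which links the Toll complex to the kinase Pelle. It was the germline member with the lowest fold change. tub had 44.4 and 48.4 CPM in hybrids, against 81.7 and 90.2 CPM in D. melanogaster. Replicates were close in both groups and the groups stood apart. The means were 46.4 ± 2.80 CPM in hybrids and 85.9 ± 5.98 CPM in D. melanogaster (SD, n = 2 each). tub fell by 0.89 on the log2 scale (SE 0.16, 95% interval -1.26 to -0.52, edgeR adjusted p = 0.0103), past the test and just under 2-fold. The adjusted p was 0.147 without hybrid replicate 1 and 0.0913 without hybrid replicate 2.

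dl, on 2L at 17436830 to 17450364 (minus strand), encodes the transcription factor Dorsal. It had 180 and 175 CPM in hybrids, against 121 and 146 CPM in D. melanogaster. Both hybrid libraries were higher, with a log2 fold change of 0.42 (SE 0.17, 95% interval 0.03 to 0.80) that did not pass adjustment (edgeR adjusted p = 0.105).

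cact, on 2L at 16313036 to 16326207 (minus strand), encodes Cactus, the inhibitor that holds Dorsal in the cytoplasm. It had 517 and 528 CPM in hybrids, against 299 and 388 CPM in D. melanogaster. Both hybrid libraries were again higher and the hybrid replicates were closer to each other than the D. melanogaster ones. The log2 fold change of 0.60 (SE 0.19, 95% interval 0.16 to 1.05) narrowly missed the test (edgeR adjusted p = 0.0575). It passed at 0.0124 in DESeq2, under 2-fold.

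**Figure D2:**
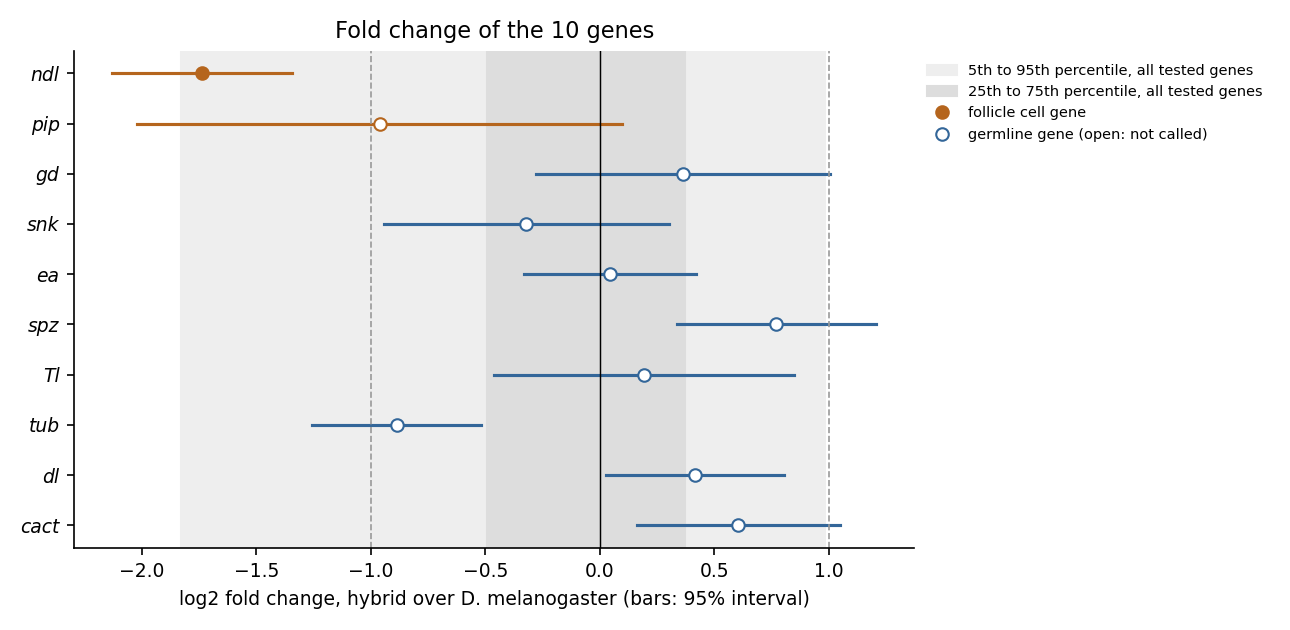
Log2 fold change of each gene in hybrids over D. melanogaster (points, bars the 95% interval of the edgeR fit, dashed lines at 2-fold), over the percentile bands of all 8202 tested genes. ndl at -1.74 is the single filled (called) point, the intervals of tub, spz, dl and cact also lie off zero, and the band from the 25th to the 75th percentile of all genes spans -0.49 to 0.37.

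The contrast between follicle cell and germline members was taken per library as the mean log2 CPM of ndl and pip minus that of the 8 germline genes. It was -3.03 and -3.58 in hybrid libraries, against -1.51 and -1.95 in D. melanogaster libraries, with a pooled SD between replicates of 0.35. The groups did not overlap. The mean log2 fold change was -1.35 for the follicle cell pair and 0.15 for the germline genes, a difference of -1.50, with -1.83 to -1.28 on leaving out 1 library at a time and -1.54 to -1.35 under the other settings. No p is given for this score over chosen genes. The median log2 fold change was -1.35 for the follicle cell pair and 0.28 for the germline genes, of which 6 were positive and 2 negative, against 0.00 over all tested genes. The difference rests mostly on ndl, the called gene, since pip did not pass the test.

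Levels per length were compared in TPM, as deposited and without doubling the hybrid values. In D. melanogaster libraries cact was the highest member at 145 ± 22.7 TPM, followed by Tl at 57.0 ± 22.8, dl at 42.4 ± 4.77, ea at 38.8 ± 1.68, tub at 36.6 ± 1.54 and spz at 33.9 ± 5.87 TPM (SD, n = 2). Each neighbouring pair from Tl to spz overlapped between libraries, so their order is not resolved. Below these came ndl at 10.7 ± 1.42, snk at 7.70 ± 1.69, gd at 4.67 ± 1.11 and pip at 2.37 ± 0.158 TPM, with no overlap between neighbours. The germline ligand, receptor and cytoplasmic members were thus all above the follicle cell members.

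In hybrid libraries cact was again the highest at 159 ± 1.82 TPM, followed by Tl at 47.0 ± 1.28, spz at 41.6 ± 0.154, dl at 39.9 ± 1.19, ea at 28.6 ± 3.36 and tub at 14.2 ± 0.811 TPM (SD, n = 2). snk at 4.43 ± 0.676 and gd at 4.33 ± 0.544 TPM overlapped, and ndl at 2.29 ± 0.114 and pip at 0.894 ± 0.549 TPM were the lowest. ndl thus stood below gd in both hybrid libraries and above it in both D. melanogaster libraries.

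Ratios of TPM within a library do not depend on scaling between libraries, and the pairs below were picked with the values known. cact over dl, inhibitor over factor, was 3.86 and 4.09 in hybrids and 3.31 and 3.52 in D. melanogaster. spz over Tl, ligand over receptor, was 0.871 and 0.900 in hybrids and 0.728 and 0.520 in D. melanogaster. Neither ratio overlapped between groups, but both differed by well under 2-fold. No share of non-overlapping ratios over other gene pairs was taken, and in CPM 73.7% of all genes did not overlap. tub over pll, the adaptor over the kinase that it binds, was 0.679 and 0.769 in hybrids and 1.89 and 1.496 in D. melanogaster. tub thus outweighed pll in the D. melanogaster libraries, and pll outweighed tub in the hybrid ones. ndl over gd was 0.470 and 0.603 in hybrids and 3.01 and 1.77 in D. melanogaster. ndl over pip was 1.73 and 4.69 in hybrids and 4.71 and 4.28 in D. melanogaster, which overlapped. Of the other pairs taken, ea over snk and snk over gd overlapped as well, while tub over Tl and ea over Spn27A did not.

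Reads placed in the wrong species could raise hybrid values. In the D. simulans libraries dl received 71.1 and 118 counts and cact 37.9 and 63.4 counts. Scaled to the D. simulans share of the hybrid libraries, such reads would make up 3.52 and 3.32% of the hybrid counts of dl and 0.655 and 0.590% of those of cact. Here and below, this scaling takes each D. simulans gene to be as high in hybrids as in D. simulans ovaries, which was not tested. For a D. simulans gene that is lower in hybrids, the expected reads and their subtraction would be too large. For pip the figure was 1.37 and 3.01%, from at most 1.02 counts in a D. simulans library, and for the other genes it was under 0.5%. gd and snk had 0 counts in both D. simulans libraries. Exons of snk, spz, cact, ndl and pip overlap a gene on the other strand by 0.0365 to 1.9% of their exonic bases, and no strand option is stated for the counting, so reads there could be shared. The other 5 genes have no such overlap.

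The follicle cell cofactors that Pipe depends on were also examined. Of 3 genes 2 were called lower, with a median log2 fold change of -1.15. wbl encodes Windbeutel, the endoplasmic reticulum protein that lets Pipe reach the Golgi, and had 3.41 and 1.88 CPM in hybrids, against 11.6 and 6.52 CPM in D. melanogaster, which gave a log2 fold change of -1.80 (SE 0.43, in edgeR adjusted p = 0.0273). Papss, the synthase of the sulphate donor, had 29.1 and 22.1 CPM in hybrids, against 60.0 and 53.4 CPM in D. melanogaster, or -1.15 on the log2 scale (SE 0.19, edgeR adjusted p = 0.00869). Both calls were lost without hybrid replicate 2 (edgeR adjusted p = 0.104 for wbl and 0.0872 for Papss). The third gene, sll, which carries that donor into the Golgi, had a log2 fold change of 0.34 (edgeR adjusted p = 0.193).

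In the protease cascade, the Easter inhibitor Spn27A, the serpin Spn88Ea and the Easter secretion factor sel had log2 fold changes of -0.25, 0.15 and -0.33, with 0 of 3 called by edgeR or by DESeq2 and 0 at an unadjusted p below 0.05. Of 13 cytoplasmic Toll signalling genes, which include the kinase gene pll and the adaptor gene Myd88, 0 were called by edgeR or by DESeq2. At an unadjusted p below 0.05 there were 7, all of them higher. Their median log2 fold change was 0.41, with a range of -0.09 to 0.63 and 12 of 13 positive. Pli, which encodes the Pelle-binding protein Pellino, was the one past adjustment, at 0.63 (edgeR adjusted p = 0.0484). Misplaced D. simulans reads would make up 20.6 and 20.7% of its hybrid counts, and with them subtracted it was at 0.33 (edgeR adjusted p = 0.213). For slmb such reads would make up 14.6 and 13.1%, and its log2 fold change went from 0.52 to 0.34 with them subtracted. By limma on TPM with hybrid TPM doubled, 5 of the 13 genes were called higher. On that scale 1489 of all 8202 genes were called higher and the median of all genes was 0.52 (pseudocount 0.1). In the edgeR fit tub at -0.89 lay below all 13 genes of the list.

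**Figure D3:**
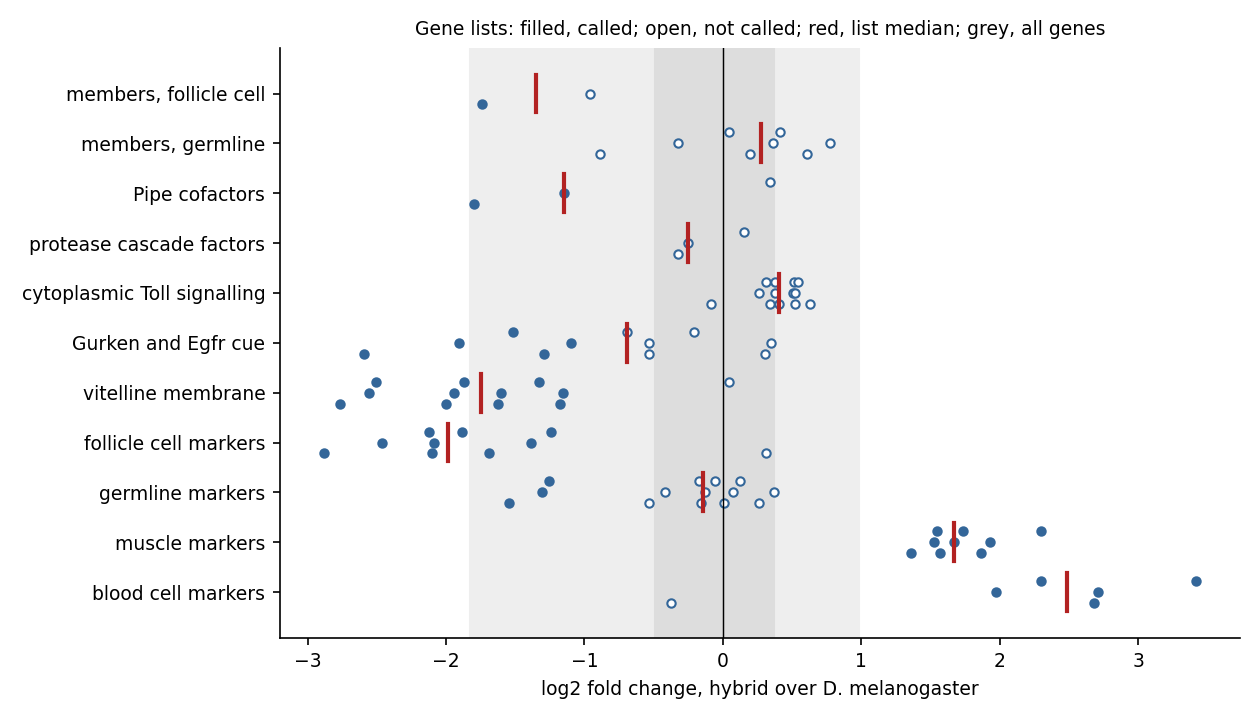
Log2 fold change of each tested gene in hybrids over D. melanogaster, by gene list, with filled points for called genes, open points for genes not called, red bars for list medians and grey bands for the 5th to 95th and 25th to 75th percentiles of all genes. The follicle cell members, vitelline membrane genes and follicle cell markers lie mostly at negative values, the cytoplasmic Toll genes lie within -0.09 to 0.63, and the muscle markers all lie above 1.

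The Gurken and Egfr cue limits pip to ventral follicle cells, and 5 of its 11 genes were called lower and 0 higher, with a median log2 fold change of -0.69. At an unadjusted p below 0.05, 8 were lower and 0 higher, and DESeq2 called 4 lower and 0 higher. grk, the germline TGF-alpha ligand, had 19.2 and 14.8 CPM in hybrids, against 46.2 and 36.7 CPM in D. melanogaster (log2 fold change -1.30, SE 0.22, edgeR adjusted p = 0.0083). Egfr, its receptor on the follicle cells, had 13.2 and 11.7 CPM in hybrids, against 50.4 and 42.8 CPM in D. melanogaster (log2 fold change -1.91, SE 0.19, edgeR adjusted p = 0.00147). Both groups stood apart for ligand and receptor alike. mirr, a homeobox repressor of pip, had 3.77 and 3.45 CPM in hybrids, against 10.02 and 10.4 CPM in D. melanogaster (log2 fold change -1.51, SE 0.29, edgeR adjusted p = 0.0132). The signal inhibitor aos had a log2 fold change of -1.10 (edgeR adjusted p = 0.0409). The protease gene rho was called on 1.22 and 3.43 counts in hybrids, against 27 and 19 counts in D. melanogaster (edgeR adjusted p = 0.0253), too few for a fold. Misplaced D. simulans reads would make up 39.8 and 40.0% of the hybrid counts of mirr, which was at -2.19 with them subtracted. After that subtraction pnt, an Egfr-responsive transcription factor gene, was called lower at -1.20 (edgeR adjusted p = 0.00609). aos then missed the test (edgeR adjusted p = 0.0505), which again left 5 genes called. sqd, with 47.0 and 44.7% of its hybrid counts so placed, turned from 0.35 to -0.50 and was not called. The list median moved from -0.69 to -1.06. The call of mirr was lost without hybrid replicate 2, those of rho and aos on leaving out any library but D. melanogaster replicate 2, and that of rho also in DESeq2, and between 2 and 5 of the 11 genes were called with 1 library left out.

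ndl shares its cell layer with the vitelline membrane genes, of which 11 of 12 tested were called lower, with a median log2 fold change of -1.75 that was close to the -1.74 of ndl. fs(1)M3, clos and Vm26Aa, which encode vitelline membrane proteins, had log2 fold changes of -2.51, -2.00 and -1.87. The others called were Vm26Ab, Vm26Ac, Vm32E, Vm34Ca, psd, fs(1)N, Fcp3C and tsl. tsl, the follicle cell factor of terminal patterning, had 2.31 and 2 counts in hybrids, against 27.0 and 18 counts in D. melanogaster (edgeR adjusted p = 0.0206), and its call was lost in DESeq2 and on leaving out any library but D. melanogaster replicate 2. The call of fs(1)N was lost without hybrid replicate 1 and that of Vm32E without hybrid replicate 2. Vml, which also encodes a vitelline membrane protein, had 355 and 303 CPM in hybrids, against 252 and 389 CPM in D. melanogaster, with overlap. Misplaced D. simulans reads would make up 83.1 and 89.6% of the hybrid counts of Vml. With them subtracted it was at -2.77 (edgeR adjusted p = 0.00263) and 12 of 12 vitelline membrane genes were called lower. That holds only if D. simulans Vml is as high in hybrids as in D. simulans ovaries, which was not tested.

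The immune branch of the Toll pathway was little represented. Of 12 genes 6 were tested and 1 was called. This was Dif, the NF-kappaB factor that acts beside Dorsal in immunity, with 29.7 and 23.5 CPM in hybrids, against 12.2 and 13.4 CPM in D. melanogaster (log2 fold change 1.06, SE 0.21, edgeR adjusted p = 0.0156). Its log2 fold change was 0.99 without D. melanogaster replicate 1 and 0.88 without hybrid replicate 1, both under 2-fold, and the second also failed the test (edgeR adjusted p = 0.151). Of 11 other Toll receptors and Spätzle-like ligands 2 were tested and Tollo was called lower, at -1.66 (edgeR adjusted p = 0.0181), while the other 9 did not pass the filter on low counts, unlike Tl and spz. Of 9 zygotic targets of Dorsal 4 were tested and zen was called lower, on 3 and 4 counts in hybrids, against 40 and 24 counts in D. melanogaster (edgeR adjusted p = 0.0208), with the call lost in DESeq2 and on leaving out any library but D. melanogaster replicate 2.

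The tissue label was checked with marker genes, whose summed levels differed between the groups. Follicle cell markers summed to 1333 and 1123 CPM in hybrids, against 6408 and 4929 CPM in D. melanogaster, and 9 of the 10 tested were called lower (tj, br, Cad99C, peb, mid, ct, Yp1, Yp2 and Yp3). Germline markers summed to 12461 and 12342 CPM in hybrids, against 12571 and 13613 CPM in D. melanogaster, with 3 of 14 called lower (bam, orb and aub). Both defining cell types were present in all 4 libraries. Muscle markers summed to 1782 and 1706 CPM in hybrids, against 645 and 425 CPM in D. melanogaster, and all 9 were called higher (Mhc, Act57B, up, wupA, sls, bt, Mlc2, Tm2 and Mlp60A). Blood cell markers summed to 145 and 161 CPM in hybrids, against 107 and 64.2 CPM in D. melanogaster, and 5 of 6 were called higher (Hml, NimC1, eater, PPO1 and Pxn). The calls of Mlp60A and eater were lost without D. melanogaster replicate 2, that of eater also without hybrid replicate 2 and in DESeq2, and that of Mlp60A also with misplaced D. simulans reads subtracted. Such reads would make up 95.02 and 79.3% of the hybrid counts of mid. The fat body markers summed to 4.07 and 7.38 CPM in hybrids, against 6.88 and 18.1 CPM in D. melanogaster, and Lsp2, Lsp1alpha, fit and to were under 3 counts in all 4 libraries. In whole ovaries fewer cells of a type and less RNA per cell cannot be told apart, and the part of these shifts in the fold changes of ndl and the other genes was not tested.

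**Figure D4:**
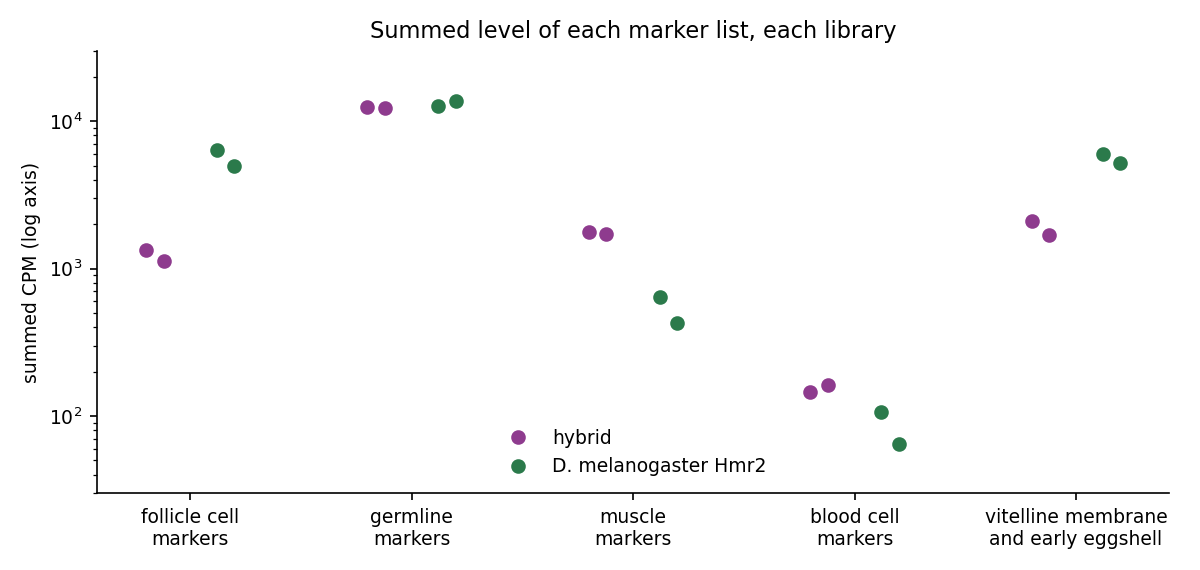
Summed CPM (log axis) of each marker list in each library, hybrid left of D. melanogaster. Follicle cell markers lie at 1333 and 1123 CPM in hybrids and at 6408 and 4929 CPM in D. melanogaster, while the germline sums lie within 12342 to 13613 CPM in all 4 libraries.

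Set against these sums, ndl was 2.31 and 2.95% of the follicle cell marker sum in hybrids, and 1.79 and 2.00% in D. melanogaster. The yolk protein genes Yp1, Yp2 and Yp3 made up 89.9 and 88.5% of that sum in hybrids, and 94.4 and 93.7% in D. melanogaster. Against the other 8 follicle cell markers ndl was 22.9 and 25.7% in hybrids, and 31.9 and 31.5% in D. melanogaster. Whether its share was higher or lower in hybrids thus depended on which markers were summed. Among those 8 markers Fas3 was not lower in hybrids, with 57.9 and 46.7 CPM, against 45.8 and 38.4 CPM in D. melanogaster. A sum without Fas3 was not taken. Of the vitelline membrane sum ndl was 1.46 and 1.97% in hybrids, and 1.92 and 1.90% in D. melanogaster, which overlapped. The hybrid sums include the Vml counts, for which the expected share of misplaced reads was 83.1 and 89.6%. pip was 0.252 and 0.126% of the follicle cell marker sum in hybrids, and 0.0752 and 0.0911% in D. melanogaster, while against the other 8 markers it was 2.51 and 1.09% in hybrids, and 1.34 and 1.44% in D. melanogaster, with overlap. As shares of the germline marker sum, spz, dl, cact and gd were higher in both hybrid libraries than in both D. melanogaster libraries. tub was lower, and snk, ea and Tl overlapped. No share of all genes was taken on this scale. In CPM gd overlapped between the groups, and 73.7% of all tested genes did not overlap. spz, for example, was 1.131 and 1.133% in hybrids, and 0.558 and 0.694% in D. melanogaster, and tub was 0.356 and 0.392% in hybrids, and 0.650 and 0.662% in D. melanogaster.

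**Figure D5:**
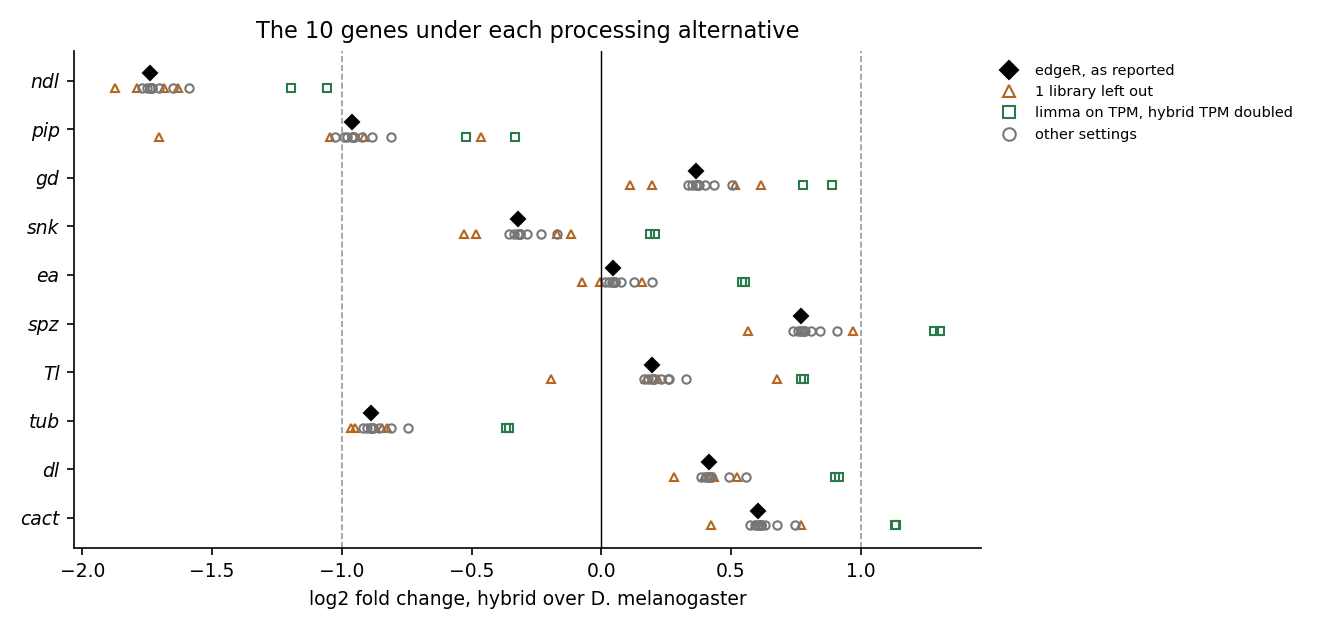
Log2 fold change of each gene in hybrids over D. melanogaster as reported (diamonds), with 1 library left out (triangles), by limma on TPM with hybrid TPM doubled (squares) and under the other settings (circles), with dashed lines at 2-fold. ndl stays between -1.87 and -1.06 throughout, pip spreads over -1.70 to -0.33, and Tl lies on both sides of zero.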

How the data were processed

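Ovarian polyA RNA of 2 samples per group was sequenced from libraries made with a directional kit. Estimated counts and TPM per gene were deposited by the authors, who kept reads of high base quality, assigned them with kallisto 0.50.0 in single-end mode to merged RefSeq transcripts of both species and summed protein-coding transcripts with tximport. The deposited TPM are relative to the transcripts of both species together. The header of 1 count column (D. melanogaster replicate 2) repeats a TPM name, and it was identified from its values. There were 6 length columns, which were not used. All 13973 D. melanogaster identifiers matched RefSeq (Release 6), and 2 of 132 listed genes were not analysed here. D. simulans alleles were not analysed here, and no sequences are shown.

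Groups and replicate numbers came from the sample titles. Estimated counts of D. melanogaster genes were rounded and tested in the 4 hybrid and D. melanogaster libraries with edgeR 4.0.16 (glmQLFit, glmQLFTest, two-sided, R 4.3.3) after filterByExpr (minimum 10 counts) and TMM scaling, with a biological coefficient of variation of 16.2%. The self-test on simulated data for this comparison (8202 genes, 200 changed by 2 on the log2 scale) recovered 99% of the changed genes. Recovery of smaller changes, such as those near the 2-fold limit, was not tested. With 2 libraries a group an exact permutation test cannot go below p = 0.333, so none was run. The replicates are described as biological, and p-values measure the spread between them. With a library left out, its group held a single library, and the spread came from the other group alone. SE is the log2 fold change over the root of F. Alternatives were DESeq2 1.42.0, other scalings and filters, no fold limit, glmTreat at 1.5-fold, limma 3.58.1 on log2(TPM + 0.1) and log2(TPM + 1) with hybrid TPM doubled, a replicate block and leaving out each library. Subtracting misplaced counts was chosen after seeing the data.

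The 10 genes, the other lists and the pairs were chosen with earlier results of these data known. All 10 genes are named, and from the other lists every called gene is named, with others named to show a list's range.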

Additional observations from a re-analysis of the deposited data

Results flagged for a closer look

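The D. simulans libraries, which enter no comparison, held counts on D. melanogaster alleles above 3 counts, the limit that a count of 0 allows, in both replicates for 4 of the 10 genes. In replicates 1 and 2 dl held 71.1 and 118 such counts, cact had 37.9 and 63.4, Tl had 5.09 and 15.3, and ea had 4.19 and 5.15. spz and tub reached 3.01 counts each in replicate 2 only.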

How the results depend on the processing

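Over 16 alternatives, the number of genes called lower was 1 except with no minimum fold change, where it was 2 (ndl and tub), and leaving out 1 library gave 1 to 1. The number called higher was 0 except with no minimum fold change, where it was 1 (spz), and by limma on log2(TPM + 0.1) and log2(TPM + 1) with hybrid TPM doubled, where it was 2 each (spz at 1.31 and 1.28, cact at 1.14 and 1.13). Leaving out 1 library gave 0 to 0. The TPM scaling moved the median of all genes by 0.52 (pseudocount 0.1), and relative to that shift spz was at 0.78, cact at 0.61, tub at -0.89 and ndl at -1.72. Signs turned for snk in TPM (0.21 and 0.19), for ea without D. melanogaster replicate 2 (-0.0039) and without hybrid replicate 1 (-0.074), and for Tl without D. melanogaster replicate 1 (-0.19). With 1 library left out ea ranged from -0.074 to 0.16 and Tl from -0.19 to 0.68. The cause was not tested. The contrast between follicle cell and germline genes kept its sign in all 16. No minimum fold change and glmTreat leave the fold changes as they are, and a change of library scaling nearly cancels from this difference. Those settings could therefore not turn its sign. Over all genes, where 245 were called higher and 841 lower, glmTreat called 122 and 518, limma on TPM 1489 and 476 (pseudocount 0.1) or 1110 and 347 (pseudocount 1), no minimum fold change 558 and 1233, and the count called higher was 474 without D. melanogaster replicate 2. On TPM (pseudocounts 0.1 and 1) 2 and 1 of the 11 Gurken and Egfr genes, 8 and 7 of the 12 vitelline membrane genes, and 1 and 1 of the 3 Pipe cofactors were called lower.

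Same-numbered libraries did not deviate together (r = -0.000165 over 8202 genes), so no shared shift was seen. This does not settle whether they were prepared together, which the labels do not state. With the replicate block ndl was at -1.73, spz at 0.79, tub at -0.89 and cact at 0.62. Subtracting counts misplaced from D. simulans, an alternative chosen after seeing the data, changed no call and no sign among the 10 genes. Among the other lists it ended the calls of aos and Mlp60A and added those of Vml and pnt. It moved the median of the zygotic Dorsal targets to -0.31, against 0.06, and that of the Gurken and Egfr genes to -1.06, against -0.69. Over all genes 222 were then called higher and 850 lower. Among the 10 genes pip had the fewest counts, 12.0 in a hybrid library, and the largest SE, 0.45.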
